A study of Mus musculus with 6 samples.

Results

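The 35 genes described here act in meiotic prophase or in preparing germ cells for it: they build the synaptonemal complex and the chromosome axis, make and repair programmed DNA breaks, tether telomeres, or control entry into meiosis. They were taken from a named list, which was drawn up with earlier results of these data known, and were looked up among the 27998 gene rows of a table of single-cell counts. All 35 were present, 32 under the listed symbol and 3 under an older one (Majin as 1700123I01Rik, Terb1 as Ccdc79 and Terb2 as 4933406J08Rik). The cells were germ cells sorted for tdTomato fluorescence from mouse testes at embryonic day 14.5, of a mixed C57/B6 and 129 background. There were 3 control libraries, labelled wildtype, and 3 Rb1 cKO libraries, from mice with a conditional knockout of Rb1, the retinoblastoma gene that restrains entry into the cell cycle. The labels name neither the Cre driver nor the deleted exons, and they do not say whether the libraries of a group came from separate animals, and p-values therefore reflect library-to-library spread only, which may be technical.

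In meiotic prophase, homologous chromosomes pair, break their DNA, repair it on the partner and are zipped together by the synaptonemal complex. Female germ cells of the mouse enter this prophase in the fetal ovary. Male germ cells of the same age stop dividing and arrest as prospermatogonia, and take up meiosis only after birth. Transcripts of prophase genes in the fetal testis therefore come before the process that they are named for.

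After 6 of 5160 deposited barcodes were removed, 5154 cells remained, 430 to 1354 per library, with 7598511 to 17323152 UMIs (unique molecular identifiers, each standing for 1 captured transcript) per library and a median of 12748.5 to 17602 UMIs per cell. The same barcode sequence occurred in more than 1 library for 9 barcodes. Levels are counts-per-million values (CPM), summed over the cells of a library and scaled by the TMM method of edgeR; each transcript is counted once at its 3′ end, so a level needs no division by gene length. Rb1 itself stood at 10.3, 8.65 and 7.13 CPM in the controls and 3.35, 3.73 and 3.64 CPM in the cKO libraries, a log2 difference of -1.27 ± 0.19 (SE; edgeR adjusted p = 0.415). A 3′ tag may lie outside the deleted part, so this need not report the deletion. All 8 germ cell markers were detected, at 8551 to 9962 CPM summed in the controls and 8311 to 9443 in the cKO libraries, while 5 Leydig markers summed to at most 1.42 CPM and 5 stromal markers to at most 2.24 CPM. Foreign transcripts were uneven: 6 Sertoli markers summed to 5.40 to 25.4 CPM in the controls and 7.53 to 11.2 in the cKO libraries, highest in control 3, where Aard stood at 11.8 and Cst9 at 7.85 CPM. Control 2 held 46.2 CPM of Pf4, a platelet gene, and 6 macrophage markers summed to 3.10 to 7.37 CPM in the controls and 1.12 to 3.28 in the cKO libraries. Of 5 endothelial markers, Pecam1, which germ cells also express, stood at 30.9 to 51.8 CPM and the other 4 each stayed under 2 CPM. The 6 erythroid markers summed to 21.6 to 32.8 CPM in the controls and 5.96 to 24.1 in the cKO libraries. Their part in the results was not tested.

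Most of the prophase genes were already detected. With at least 1 CPM and at least 3 UMIs in each of the 3 control libraries as the rule, 27 of 35 (77.1%) passed, beside 38.1% of all gene rows. Genes that passed are called transcribed here. Measured the same way, 0 of 12 genes of spermatids, the cells after meiosis, passed, and 4 of those 12 had no UMI at all, but the fetal testis holds no spermatids whose RNA could leak. Of markers of cell types that the testis does hold, 2 of 6 Sertoli, 3 of 6 erythroid, 1 of 6 macrophage and 1 of 5 endothelial markers (Pecam1) passed, with Hbb-y at 11.7 ± 5.59 CPM in the controls (SD, n = 3). The line of 1 CPM therefore lies below the level of some foreign RNA in these libraries. A member with a control mean below that of Hbb-y cannot be placed by level alone. Among members that passed the rule, these were Sycp2, Syce3, Tex12, Dmc1, Spo11, Hspa2, Mei4, Msh5, Mlh3, Terb2, Meioc and Taf7l. Pf4 had a higher control mean, 15.7 ± 26.4 CPM (SD), but failed the rule, with 0.274, 46.2 and 0.659 CPM. Tex11 and Hormad2, at control means of 12.5 and 13.1 CPM, lay above Hbb-y but below Pf4. Of 31 other meiosis genes, 21 passed. The mean level over the 6 libraries was at least 10 CPM for 18 members, 1 to 10 CPM for 11 and below 1 CPM for 6. The members summed to 1033 to 1122 CPM in the controls and 1153 to 1335 CPM in the cKO libraries, and a single gene, Syce2, made up 29.1 to 37.2% of their UMIs.

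**Figure D1:**
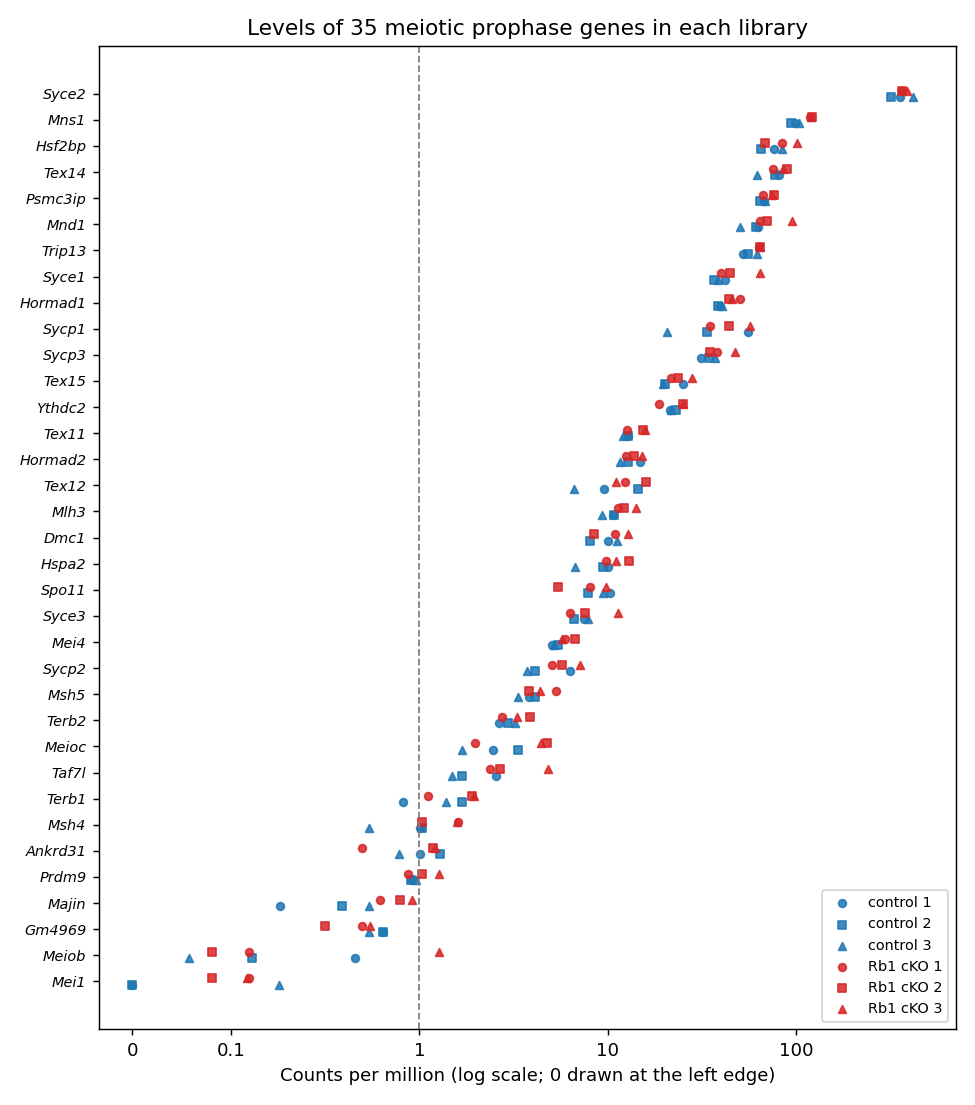
Level of each of the 35 genes in each library (CPM, log scale), with controls in blue and Rb1 cKO in red; the dashed line marks 1 CPM. The genes run from 368 CPM for Syce2 down to 0.0841 CPM for Mei1, and libraries of both groups lie close together for most genes.

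By role the counts of members that passed the rule were as follows, with no test of a difference between roles. Among the genes of the synaptonemal complex and chromosome axis, all 10 were transcribed, with mean levels from 5.34 to 368 CPM. This group holds every layer of the structure: the lateral element proteins Sycp2 and Sycp3, the transverse filament Sycp1, the central element proteins Syce1, Syce2, Syce3 and Tex12, the axis proteins Hormad1 and Hormad2, and Trip13, the ATPase that removes HORMA-domain proteins from chromosomes. Of the 9 genes of strand exchange and crossover, 7 were transcribed, the exceptions being Meiob, whose protein binds single-stranded DNA, and Msh4, a crossover factor. Germ cell and spermatogenesis genes were transcribed in 5 of 5 cases, at 2.60 to 109 CPM: Mns1, a protein of the sperm tail, Tex14, needed for the bridges between germ cells, Tex15, which acts in silencing and repair, Hspa2, a testis heat shock protein, and Taf7l, a germ cell form of a general transcription factor subunit.

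Of the 8 genes of break formation and telomere attachment, 3 passed the rule: Spo11, the enzyme that cuts the DNA (8.48 CPM on average), Mei4, one of its partners (5.68 CPM), and Terb2 of the telomere attachment complex (3.13 CPM). Further break genes among the 31 other meiosis genes, named after their values were seen, were divided. Rec114 at 47.6 ± 7.61 CPM and Ccdc36 at 1.72 ± 0.55 CPM in the controls passed. Gm960, at 0.915, 0.775 and 0.719 CPM in the controls, did not. Prdm9, which marks where breaks are made, lay just under the line at 0.915, 0.904 and 0.959 CPM in the controls. Its 74 UMIs came from all 6 libraries, so it was at the edge of detection rather than at 0. Ankrd31, another break factor, had 73 UMIs, at 1.01, 1.29 and 0.779 CPM in the controls. Terb1, a telomere attachment protein, had 110, at 0.823, 1.68 and 1.38 CPM. Both failed the rule through a single control. Majin, which anchors the telomere complex to the nuclear membrane, had 44 UMIs, and Mei1 had 7 UMIs in all 6 libraries together, with none in controls 1 and 2.

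Among the 3 genes that control meiosis, Ythdc2, an RNA helicase, averaged 22.5 CPM and its partner Meioc 3.11 CPM. Gm4969, the row of Meiosin, a DNA-binding partner of Stra8 at the onset of meiosis, stayed at 0.317 to 0.646 CPM with 38 UMIs in all. Among the members just outside the line, Msh4 had 80 UMIs and 0.539 to 1.03 CPM in the controls. Those just inside were Taf7l at 1.498 to 2.56 CPM and Meioc at 1.68 to 3.36 CPM. The 30 UMIs of Meiob were uneven: 21 of them came from cKO 3.

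The promoters of these genes were read for 2 short motifs that bear on the comparison with Rb1 cKO and on the cells with Stra8 transcripts described further on. GCGGGAA is a form of the site of E2F factors, which the Rb1 protein binds, and CACGTG is an E-box, the general site of helix-loop-helix factors. RefSeq promoters of build GRCm38.p6, from 250 bases before to 50 after the start, were matched for 27 of the 35 members. On either strand, GCGGGAA occurred in 9 of 27 (33.3%) against 5.29% of 27025 genes with a promoter in the same table, and CACGTG in 6 of 27 (22.2%) against 8.09%. Both occurred in 4 of 27 (14.8%) against 0.611%: Sycp3, Syce2, Tex12 and Hormad1. The 2 motifs share no bases in any of them. A match describes letters and is not a measured binding site. The 250 bases before the start are shown for Sycp3 (chr10:88459337-88459586, plus strand), Hormad1 (chr3:95559427-95559676, plus strand) and Tex14 (chr11:87404815-87405064, plus strand), which carry GCGGGAA, and for Sycp1 (chr3:102936101-102936350, minus strand) and Taf7l (chrX:134476491-134476740, minus strand), which carry an E-box alone; capitals mark the motifs.
Sycp3: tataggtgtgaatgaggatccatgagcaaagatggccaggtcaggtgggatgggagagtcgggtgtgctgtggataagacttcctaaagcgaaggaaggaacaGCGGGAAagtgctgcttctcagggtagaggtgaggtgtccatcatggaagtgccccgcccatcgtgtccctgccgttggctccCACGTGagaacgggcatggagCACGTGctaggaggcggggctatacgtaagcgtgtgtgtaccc
Hormad1: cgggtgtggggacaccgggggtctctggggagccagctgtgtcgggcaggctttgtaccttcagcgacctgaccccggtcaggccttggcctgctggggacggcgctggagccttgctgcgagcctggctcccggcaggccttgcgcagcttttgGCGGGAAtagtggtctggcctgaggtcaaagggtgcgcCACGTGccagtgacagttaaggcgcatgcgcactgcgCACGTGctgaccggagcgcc
Tex14: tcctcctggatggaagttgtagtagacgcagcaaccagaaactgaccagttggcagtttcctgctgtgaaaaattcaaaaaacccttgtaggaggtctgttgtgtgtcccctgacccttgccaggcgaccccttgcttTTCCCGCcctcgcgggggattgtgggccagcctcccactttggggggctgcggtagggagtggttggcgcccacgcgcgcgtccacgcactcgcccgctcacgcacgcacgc
Sycp1: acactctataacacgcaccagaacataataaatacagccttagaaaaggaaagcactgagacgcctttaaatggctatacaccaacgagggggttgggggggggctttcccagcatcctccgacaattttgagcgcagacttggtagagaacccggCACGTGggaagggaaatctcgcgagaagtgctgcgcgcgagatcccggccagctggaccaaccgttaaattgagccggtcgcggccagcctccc
Taf7l: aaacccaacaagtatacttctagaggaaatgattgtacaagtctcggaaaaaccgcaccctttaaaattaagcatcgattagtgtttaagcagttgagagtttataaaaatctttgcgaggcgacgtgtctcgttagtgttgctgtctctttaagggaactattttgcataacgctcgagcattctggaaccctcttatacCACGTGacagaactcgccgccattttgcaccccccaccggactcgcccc
Counted from its first base to the start, the E2F-type motif lay 147 bases before the start of Sycp3, 95 before that of Hormad1 and 112 before that of Tex14, where it is read on the other strand and appears as TTCCCGC. The E-boxes lay 64 and 43 bases before the start of Sycp3, 57 and 20 before that of Hormad1, 94 before that of Sycp1 and 49 before that of Taf7l. The other promoters with GCGGGAA were those of Msh5, Prdm9, Hsf2bp and Meioc. Mns1, the member with the smallest p in the comparison below, and Mnd1 had neither motif in this window.

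Rb1 cKO and control libraries were compared for the 31 members with enough UMIs to be tested, which leaves out Mei1, Majin, Meiob and Gm4969. No member differed after adjustment: edgeR's quasi-likelihood test on the summed counts, adjusted over all 11540 genes tested, called 0 of 31, with adjusted p between 0.994 and 0.996, and it called 0.0% of all genes. DESeq2 also called 0 members. The estimates leaned 1 way: 30 of 31 members had a positive log2 difference, beside 50.1% of all genes, with a median of 0.23 beside 0.00 for all genes. At an unadjusted p under 0.05, 4 of 31 members (12.9%) were higher in cKO (Mns1, Hormad1, Mnd1 and Taf7l), beside 1.78% of all genes, and 0 were lower, beside 1.73%; DESeq2 had 2 such members. In 6 of 31 members (19.4%) all 3 cKO values lay above all 3 control values, beside 4.71% of all genes, and in 0 they lay below, beside 4.23%. Those 6 were Hormad1, Trip13, Mei4, Mlh3, Mnd1 and Mns1. With 1 library fewer, members without overlap in either direction were 13 of 32 (40.6%) without control 1, beside 24.3% of all genes, 18 of 32 (56.2%) without cKO 1, beside 15.98%, and 10 of 31 (32.3%) without cKO 2, beside 17.4%. Without cKO 3 they were 6 of 31 (19.4%), beside 20.1% of all genes, so there the members were at the background. Members at an unadjusted p under 0.05 ranged from 2, without control 2 or cKO 3, to 7, without control 1. Members are not independent of each other, and 3 libraries against 3 cannot give an exact permutation p below 0.1 for any 1 of them. A higher level in a library can come from more cells with the transcript or from more RNA per cell, which sums cannot tell apart.

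**Figure D2:**
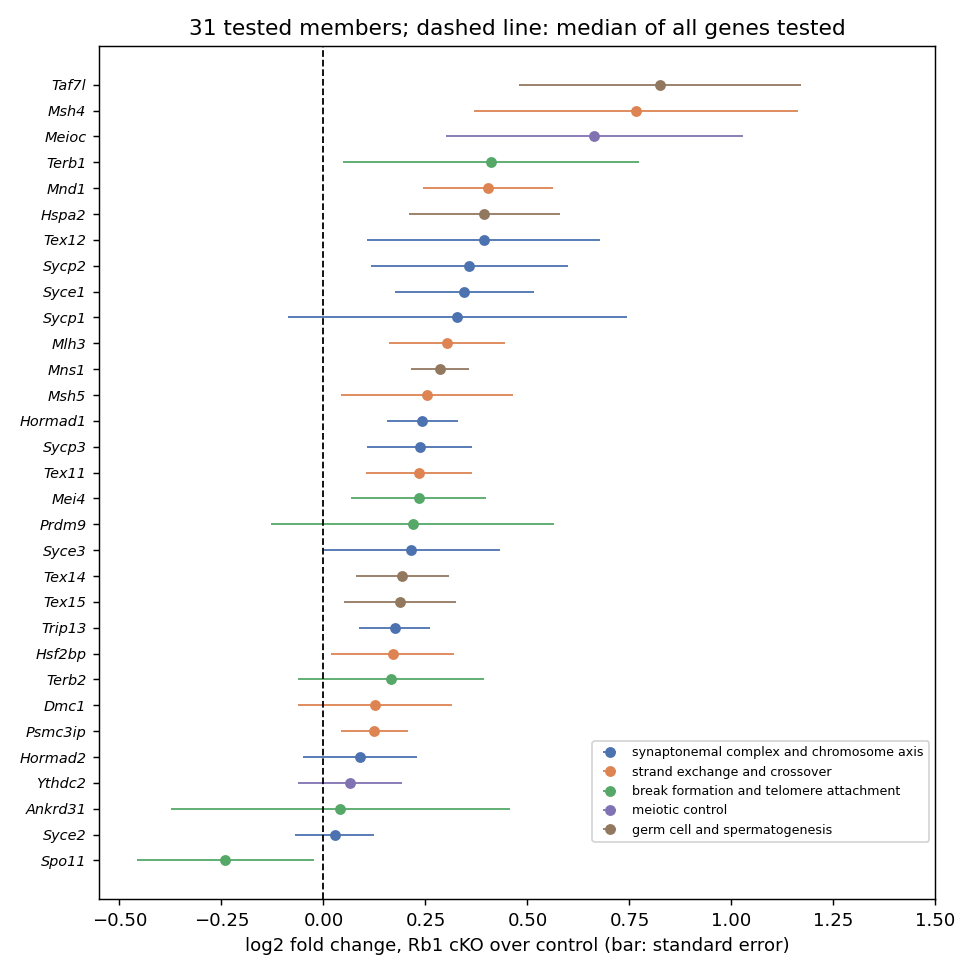
Difference between Rb1 cKO and control for the 31 tested genes as log2 fold change, with the standard error of the edgeR estimate as the bar and the role as the colour; the dashed line is the median of all genes tested. Estimates run from -0.24 for Spo11 to 0.82 for Taf7l, and Spo11 is the only one below 0.

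Mns1 had the smallest p of the members. It stood at 98.2, 94.0 and 103 CPM in the controls and 119, 122 and 120 CPM in the cKO libraries, a mean of 98.5 ± 4.73 against 120 ± 1.55 (SD, n = 3 each). The groups did not overlap and each was tight. The log2 difference was 0.29 ± 0.07 (SE), with an unadjusted p of 0.00273 and an adjusted p of 0.994 by edgeR, and it was also 0.29 without cKO 3.

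In the chromosome axis, Hormad1, which marks axes that are not yet synapsed, stood at 39.2, 38.2 and 40.3 CPM in the controls and 50.2, 43.9 and 45.6 CPM in the cKO libraries. All cKO values lay above the controls, with a log2 difference of 0.24 ± 0.09 (SE; edgeR unadjusted p = 0.0194). Its relative Hormad2 stood at 14.8, 12.8 and 11.6 CPM against 12.5, 13.8 and 15.1 CPM, ranges that overlapped almost fully. Trip13, the ATPase acting on both, stood at 52.0, 55.5 and 61.8 CPM against 63.2, 64.0 and 64.1 CPM. Its cKO values were nearly equal and lay above a wider spread of controls, with the highest control only a little lower (log2 difference 0.17 ± 0.09).

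The lateral element protein Sycp3 stood at 31.1, 34.3 and 37.0 CPM in the controls and 38.1, 34.8 and 47.6 CPM in the cKO libraries, which overlapped; its log2 difference was 0.24 ± 0.13 and 0.09 without cKO 3, the highest library. Sycp2, its partner, was lower, at 3.72 to 6.31 CPM against 5.09 to 7.11 CPM. Sycp1, the transverse filament, varied more between libraries of 1 group than between groups: 55.2, 33.4 and 20.6 CPM in the controls and 34.9, 44.0 and 56.8 CPM in the cKO libraries. Its log2 difference of 0.33 had a standard error of 0.41, larger than the estimate itself, and was 0.13 without cKO 3.

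Among the central element genes, Syce2 was by far the most abundant member, at 357, 319 and 417 CPM in the controls and 364, 362 and 388 CPM in cKO. The cKO values all lay within the control range, and the log2 difference was 0.03 ± 0.10, turning to -0.0568 without control 2 and -0.00506 without cKO 3. Syce1 stood at 42.1, 36.8 and 38.3 CPM against 40.0, 44.3 and 64.0 CPM, with only cKO 3 well above the rest and a log2 difference of 0.35 ± 0.17, or 0.11 without it. Tex12, which binds Syce2, stood at 9.60, 14.5 and 6.59 CPM against 12.3, 16.01 and 11.1 CPM and overlapped. Syce3 lay between 6.59 and 7.85 CPM in the controls and between 6.33 and 11.3 CPM in cKO. Without Syce2 the members summed to 705 to 765 CPM in the controls and 789 to 947 CPM in cKO, so the separation of the 2 sums did not rest on the most abundant gene.

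Mnd1 and Psmc3ip encode the partners in the complex that helps recombinases find the partner chromosome, and their values differed in spread. Mnd1 stood at 62.8, 61.5 and 50.04 CPM in the controls and 64.3, 69.9 and 95.2 CPM in cKO. The groups came close to each other, and the log2 difference of 0.40 ± 0.16 (SE; edgeR unadjusted p = 0.0359) was 0.21 without cKO 3. Psmc3ip stood at 67.5, 63.9 and 68.6 CPM against 66.9, 76.6 and 74.4 CPM and overlapped. Dmc1, the meiotic recombinase that the pair assists, was much lower, at 10.1, 8.01 and 11.2 CPM against 10.9, 8.48 and 12.8 CPM, with no separation and a log2 difference that turned from 0.13 to -0.0306 without cKO 3. Hsf2bp, which ties BRCA2 to meiotic recombination, stood at 76.1, 65.1 and 83.7 CPM against 84.2, 68.2 and 101 CPM, again overlapping.

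Of the crossover genes, Mlh3, a resolvase subunit, stood at 10.6, 10.8 and 9.29 CPM in the controls and 11.3, 12.1 and 14.2 CPM in cKO, without overlap (log2 difference 0.30 ± 0.14). Tex11, an X-linked crossover protein, stood at 12.8, 12.8 and 11.99 CPM against 12.7, 15.5 and 15.8 CPM, where cKO 1 lay within the controls. Msh5 lay between 3.36 and 4.13 CPM in the controls and between 3.80 and 5.34 CPM in cKO. Among break genes, Spo11 was the 1 member with a negative estimate: 10.2, 7.88 and 9.41 CPM in the controls against 8.07, 5.47 and 9.78 CPM in cKO, overlapping, with a log2 difference of -0.24 ± 0.22. Its partner Mei4 was tight in both groups and did not overlap, at 5.03, 5.42 and 5.21 CPM against 5.96, 6.74 and 5.71 CPM.

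Ythdc2 stood at 21.4, 23.1 and 21.8 CPM in the controls and 18.7, 25.0 and 25.1 CPM in cKO, with cKO 1 the lowest library of all; the log2 difference of 0.07 turned to -0.00482 without cKO 3. Tex14 stood at 80.7, 77.1 and 61.9 CPM against 75.4, 89.7 and 85.4 CPM, overlapping in cKO 1. Tex15 stood at 25.2, 20.02 and 19.6 CPM against 21.7, 23.5 and 28.1 CPM, also overlapping. Taf7l had the largest estimate of the 31, a log2 difference of 0.82 ± 0.35 (SE; edgeR unadjusted p = 0.0394), from few UMIs: 2.56, 1.68 and 1.498 CPM against 2.36, 2.69 and 4.80 CPM. It had 198 UMIs in all, and without cKO 3, the highest library, the log2 difference was 0.42. Hspa2, just under the 10 CPM line at a mean of 9.99 where Dmc1 at 10.2 was just above it, lay between 6.71 and 9.97 CPM in the controls and between 9.81 and 12.9 CPM in cKO.

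Of the 31 other meiosis genes, 23 could be tested: 19 had a positive and 4 a negative log2 difference, 0 were called, and the median was 0.23. Smc1b, the meiotic cohesin subunit and with Tex19.1 and Fkbp6 1 of the 3 most abundant, stood at 181 ± 14.4 CPM in the controls and 242 ± 13.4 CPM in cKO (SD, n = 3 each), a log2 difference of 0.42 with an adjusted p of 0.779 by edgeR. Tex19.1 stood at 242 ± 65.0 and 243 ± 18.8 CPM and Fkbp6 at 208 ± 29.3 and 199 ± 21.5 CPM, without a difference larger than the spread. Others with an unadjusted p under 0.05 included the repair gene Brca2, 4930432K21Rik and Spdya, each higher in cKO; Brca2 stood at 54.5 ± 1.40 and 67.1 ± 4.52 CPM.

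No member was called within the authors' clusters of cells either. The 5 clusters of the deposited annotation held 2210, 1863, 640, 343 and 98 cells. Cluster 0 was led by genes of the start of replication (Ccne1, Rrm2), cluster 1 by mitotic genes (Cdc20, Ccnb1, Hmmr), cluster 2 by histone genes (Hist1h1e, Hist1h1d), cluster 3 by Pf4 and Rpgrip1 and cluster 4 by Dcxr, Mcam and Phlda3. The edgeR comparison of cKO with control within clusters 0, 1, 2 and 3 called 0 members, beside 0.0% of all genes in each, and cluster 4 had too few cells per library. Members with a positive log2 difference were 25 of 27 in cluster 0, 21 of 25 in cluster 1, 18 of 22 in cluster 2 and 14 of 15 in cluster 3, with medians of 0.20, 0.17, 0.22 and 0.32. At an unadjusted p under 0.05, cluster 0 had 5 members higher (Hormad1, Mnd1, Taf7l, Tex14 and Mns1; 1.96% of all genes), cluster 1 had 2 (Syce1 and Hspa2; 1.53%), cluster 2 had 2 (Mnd1 and Mns1; 1.89%) and cluster 3 had 2 (Sycp3 and Mns1; 1.68%). The test of whether the difference itself varied between clusters 1 and 0 called 0 of 27 members, beside 0.0192% of all genes. Its smallest member values were those of Sycp3, 0.33 on the log2 scale, and Tex14, -0.23, with adjusted p of 0.934 and 0.939 by edgeR.

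Levels differed between clusters in a way that depended on the gene. The clusters were made from these cells' transcripts, so these are descriptions with no test. Of the 18 members at 10 CPM or more, 6 were higher in cluster 0 than in cluster 1 in all 6 libraries and 0 were lower in all 6, beside 17.3% and 18.5% of the 6758 genes of at least 10 CPM. Syce2 stood at 403 ± 22.2 CPM in cluster 0 and 324 ± 24.5 in cluster 1 (SD, n = 6), Psmc3ip at 79.7 ± 5.31 and 58.5 ± 5.23, and Tex15 at 25.7 ± 4.39 and 17.5 ± 2.03. The others were Hsf2bp, Tex14 and Mns1. Sycp3 (38.1 ± 4.56 and 35.8 ± 8.22) and Mnd1 (65.9 ± 16.4 and 66.0 ± 11.2) differed by less than their spread.

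Cluster 2, led by histone genes, lay above cluster 1 in all 6 libraries for 9 of the 18 members, beside 13.9% of the same genes, and above cluster 0 in all 6 for 7, beside 11.7%. Mns1 stood at 143 ± 18.2 CPM there against 109 ± 14.4 in cluster 0 and 96.9 ± 8.13 in cluster 1. Hsf2bp stood at 105 ± 11.2 CPM against 83.0 ± 13.4 and 66.8 ± 9.44, and Syce1 at 65.4 ± 13.7 against 40.9 ± 10.3 and 41.0 ± 7.82. Tex12 stood at 20.9 ± 8.83 CPM against 9.80 ± 3.31 and 11.04 ± 3.51, and Hormad1 at 54.2 ± 3.52 against 39.4 ± 7.05 and 42.4 ± 3.50. Mlh3 and Sycp1 made up the 7 above cluster 0, while Mlh3 was above cluster 1 in only 4 libraries and Sycp1 in 5. Dmc1, Tex14, Tex15 and Syce2 were also above cluster 1 in all 6 libraries, and Psmc3ip in 5. Against cluster 0, Syce2 and Psmc3ip did not follow: cluster 2 was higher in 1 library for Syce2 and in 0 for Psmc3ip. At 379 ± 30.7 and 67.0 ± 7.21 CPM, the cluster 2 means of Syce2 and Psmc3ip lay between those of clusters 0 and 1.

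**Figure D3:**
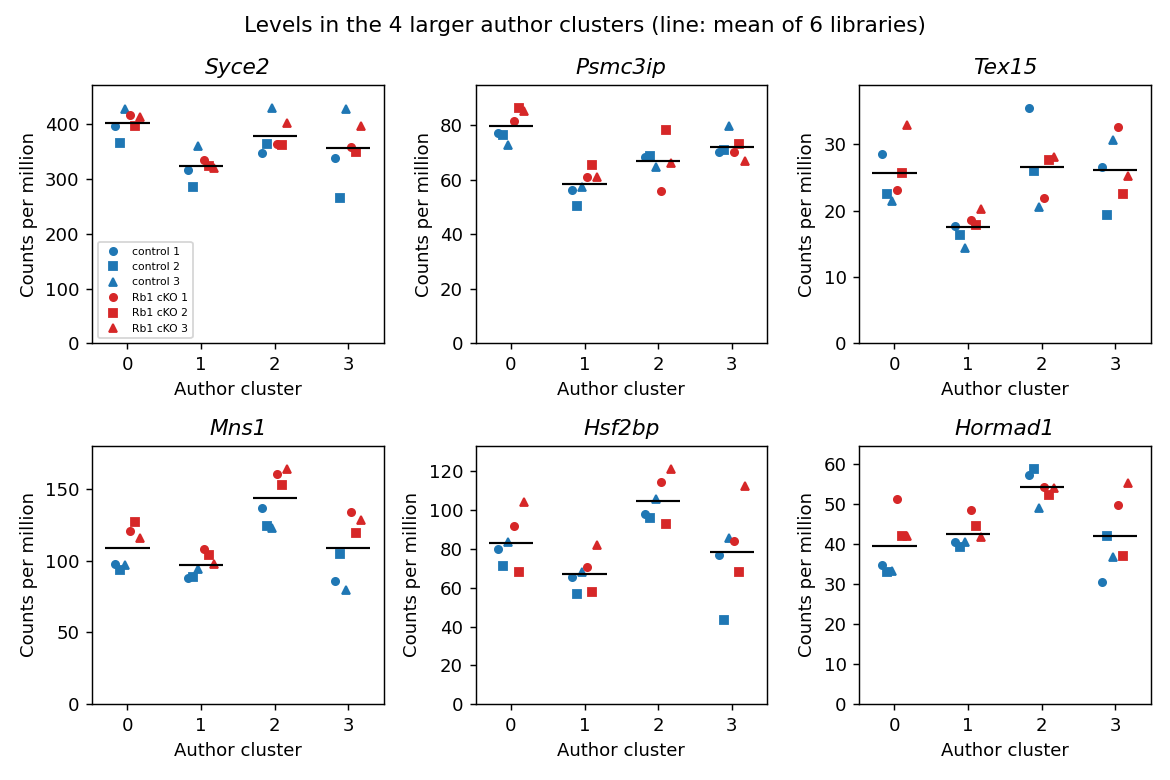
Levels of 6 prophase genes in the authors' clusters 0 to 3, in CPM, with a point for each library and a line for the mean of the 6. Syce2, Psmc3ip and Tex15 are lowest in cluster 1, and Mns1, Hsf2bp and Hormad1 are highest in cluster 2.

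Per cell the transcripts were thinly spread. With every cell thinned to 5000 UMIs, which left out 57 shallower cells, a cell had a median of 6 UMIs from 4 of the 35 members, and 18 of 5097 cells had none. Syce2 was seen in 82.2 ± 4.47% of the cells of control libraries and 83.9 ± 1.43% of those of cKO libraries (mean ± SD over 3 libraries). Mns1 was next at 37.6 ± 1.55% and 44.2 ± 1.43%, then Hsf2bp at 29.9 ± 3.97% and 33.7 ± 4.49%, and Psmc3ip and Tex14 also lay above Mnd1 in the controls. Mnd1 was seen in 24.5 ± 3.55% and 32.1 ± 3.99% of cells. For Mns1 and Mnd1, all cKO libraries lay above the controls, with an exact two-sided permutation p of 0.1, the smallest possible here. The same held for Hormad1, Trip13, Taf7l, Msh4, Prdm9 and Terb1, and for Smc1b outside the members. The share of all genes for which this holds is not given here. Sycp3 was seen in 14.98 ± 0.72% and 16.3 ± 0.53% of cells and Sycp1 in 15.8 ± 6.65% and 19.4 ± 3.14%. Transcripts that germ cells should lack gave the background at the same depth: Amh, a Sertoli gene, was seen in 1.70 ± 0.31% of control cells, Hbb-y, an erythroid gene, in 5.61 ± 2.70% and Tnp1, a spermatid gene, in 0%. Shares of members at or below those of Hbb-y, such as Spo11 at 4.91 ± 0.30% and Dmc1 at 4.14 ± 1.56%, are not read as expression per cell. The germ cell gene Dazl was seen in 98.9 ± 0.77% of control cells.

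The 13 members with a mean of at least 0.1 UMI per thinned cell varied among cells little more than random sampling gives, where the variance equals the mean. The ratio of variance to mean was 1.001 to 1.19, with a median of 1.05 beside 1.02 over 4923 genes of at least that mean. Sycp1 had the highest ratio, above the 95th percentile of those genes, which was 1.16. Correlations across cells between pairs of these members, 78 pairs in all, had a median r of 0.009 and ran from -0.026 to 0.052; in counts as sparse as these they show no pattern. Cells with 16 or more member UMIs were rare, 14 of 5097, and 12 of the 14 came from cKO 3, where the highest had 24.

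Cells with a UMI of Stra8, the gene that retinoic acid induces as germ cells enter meiosis, were looked at after the data were seen. In thinned control cells the share with a Stra8 UMI, 1.64 ± 1.04%, was no higher than that of Amh, so 1 UMI is not read as expression in a cell. In thinned cells its UMIs were less evenly spread than those of Amh, with a ratio of variance to mean of 3.70 against 1.88. The highest thinned cell held 9 UMIs for either gene. Without thinning, a cell held up to 21 Stra8 UMIs. At least 1 Stra8 UMI was found in 166 of 5154 cells (3.22%), in 27, 18 and 16 cells of the controls and 14, 20 and 71 cells of the cKO libraries. At least 3 UMIs were found in 51 cells: 6, 8 and 5 in the controls and 1, 2 and 29 in cKO. So cKO 3 stood apart, and the other cKO libraries had fewer cells with at least 3 UMIs than any control. Of the 51 cells, 48 were in cluster 0. Depth was alike, with a median of 14127.5 UMIs in cells with Stra8 and 13967.5 in cells without.

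Cells with a Stra8 UMI had more transcripts of several prophase genes. Their sums were compared with the remaining cells of the same library by edgeR, with the library as a block and Stra8 itself left out, over 9838 genes. Of 27 members tested, 6 were higher after adjustment and 0 were lower, beside 1.23% of all genes called higher and 2.31% called lower. Sycp3 stood at 62.4, 81.8 and 32.8 CPM in the Stra8 cells of the controls and 67.4, 49.6 and 107 CPM in those of cKO, against 30.5 to 44.3 CPM in cells without. It was higher in 5 of 6 libraries, with a log2 difference of 1.01 ± 0.14 (SE; edgeR adjusted p = 2.35e-10). Control 3, with only 16 such cells, was the library that did not follow.

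Sycp1 stood at 94.9, 62.9 and 14.0 CPM in Stra8 cells of the controls and 42.1, 42.0 and 132 CPM in those of cKO, against 54.7, 32.7, 20.9, 35.2, 44.5 and 52.6 CPM in cells without. It was higher in 4 of 6 libraries (log2 difference 0.87 ± 0.13, edgeR adjusted p = 2.07e-08). Of the 213 Sycp1 UMIs in Stra8 cells, 134 came from cKO 3, so this p-value rests largely on that library. Syce1 was higher in 6 of 6 libraries, by a smaller log2 difference of 0.55 ± 0.14 (edgeR adjusted p = 0.00404), and Tex15 in 5 of 6, by 0.91 ± 0.18 (edgeR adjusted p = 7.73e-05). Meioc and Taf7l differed most, from few UMIs. Meioc stood at 8.14, 12.6 and 9.36 CPM in Stra8 cells of the controls and 0, 0 and 22.7 CPM in those of cKO, where cKO 1 and 2 had no UMI of it, a log2 difference of 1.997 ± 0.38 (edgeR adjusted p = 3.74e-05). Of its 32 UMIs in Stra8 cells, 23 came from cKO 3. Taf7l was higher in 5 of 6 libraries, by 1.70 ± 0.42 (edgeR adjusted p = 0.00403), on 24 UMIs.

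The calls changed most without cKO 3, which holds 71 of the 166 cells: Sycp3 alone was then called, with a log2 difference of 0.82 and an edgeR adjusted p of 0.00223. The other estimates without it were 1.43 for Taf7l, 1.19 for Meioc, 0.66 for Tex15, 0.50 for Sycp1 and 0.43 for Syce1, with edgeR adjusted p of 0.378, 0.465, 0.181, 0.185 and 0.305. Leaving out any other library kept 6 to 9 members. The cells also lay unevenly in the clusters: 121 of the 166 were in cluster 0, which held 42.9% of all cells, and the part of this in the result was not tested. Not every prophase gene was higher in the Stra8 cells. Mns1 was lower in 6 of 6 libraries without passing the test (log2 difference -0.18, edgeR adjusted p = 0.458), and Psmc3ip, Mnd1 and Syce2 had log2 differences of -0.06, 0.14 and 0.13.

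**Figure D4:**
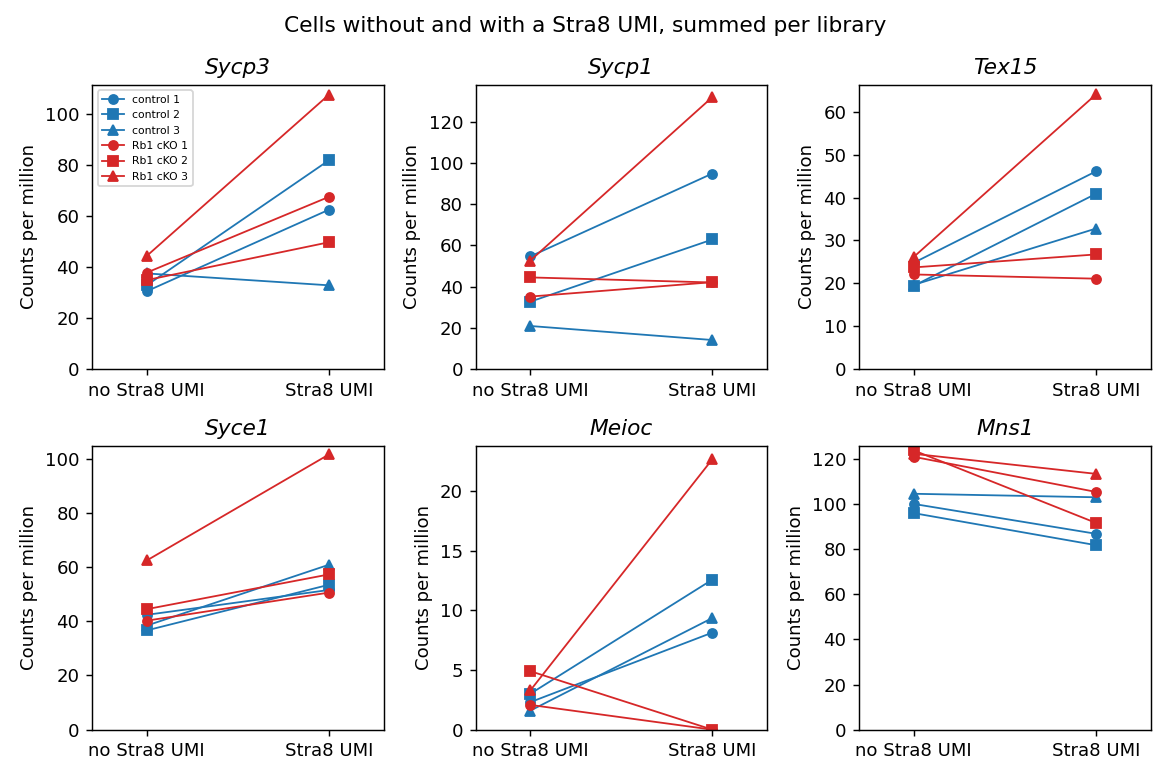
Levels (CPM) of 6 prophase genes in cells without and with a Stra8 UMI, with a line for each library. Sycp3 is higher in Stra8 cells in 5 of 6 libraries and Syce1 in 6 of 6, the steepest lines for Sycp1, Tex15 and Meioc belong to cKO 3, and Mns1 is lower in 6 of 6.

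Pooled over libraries, the 51 cells with at least 3 Stra8 UMIs showed the called genes at higher levels. These cells are part of the 166 compared above, and the genes were picked by that comparison, so this is no separate support. It is a description with 95% Poisson intervals for counting error only. Of the 51 cells, cKO 3 supplied 29, with 361269 of their 674143 UMIs. Syce1 stood at 101 CPM (78.3 to 128) against 44.4 in cells with no Stra8 UMI, and at 67.1 against 39.9 without cKO 3. Sycp1 stood at 153 CPM (125 to 185) against 39.1 CPM in cells with no Stra8 UMI, and Sycp3 at 150 CPM (122 to 182) against 36.2. Meioc stood at 28.2 CPM (17.0 to 44.0) against 2.80, Taf7l at 23.7 CPM (13.6 to 38.5) against 2.46, and Tex15 at 74.2 CPM (55.05 to 97.8) against 22.3. Without cKO 3, in 22 such cells, Sycp1 stood at 102 CPM against 35.8 and Sycp3 at 115 CPM against 34.3, and in cKO 3 alone they stood at 197 against 50.8 and 180 against 42.7. Also without cKO 3, Tex15 stood at 54.3 CPM against 21.5. Meioc stood at 22.4 CPM on 7 UMIs against 2.70, and Taf7l at 9.59 CPM on 3 UMIs against 2.02. Gm4969, the Meiosin row, had 0 UMIs in these cells, which at a depth of 674143 UMIs allows a level of up to 5.47 CPM, the upper end of its 95% Poisson interval. Of the 6 members with an E-box in the promoter window, 3 were called in the Stra8 comparison (Sycp3, Sycp1 and Taf7l) and 3 were not: Hormad1, Tex12 and Syce2, with edgeR adjusted p of 0.0662, 0.0728 and 0.330. Syce1 and Meioc were called with no E-box there, and Tex15, also called, had no matched promoter. The Meioc window, chr11:102665335-102665584, lay inside the gene's locus, which starts at base 102663716. With the cells that had a Stra8 UMI left out, the comparison of Rb1 cKO with control had 30 of 31 members with a positive log2 difference, all 30 of them positive with all cells too, a median of 0.24 and 0 calls.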

How the data were processed

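Per the labels' protocols, libraries were made with 10x Genomics v2 chemistry from sorted tdTomato+ cells. The authors deposited raw UMI counts per gene and cell with a table of cell annotations; Cell Ranger, Seurat 3.0 and build mm10 are listed per the submitters' processing notes, and the annotation release is not given in the sources used here. Cells were filtered lightly: a cell was kept where it showed 500 genes or more and mitochondrial counts stayed under 10%. Doublets were not called. Counts were summed per library, or per library and author cluster of at least 20 cells, and tested with edgeR 4.0.16 (TMM, filterByExpr, robust quasi-likelihood, two-sided) under R 4.3.3, adjusted by Benjamini-Hochberg over all genes tested at 0.05. DESeq2 1.42.0, RLE scaling, no low-count filter, other cell sets, a replicate block and leaving out each library were alternatives. The test scripts were checked on simulated counts. Intervals and detection limits cover counting error only. The 35 genes and all lists were chosen with earlier results of these data known. Genes at a mean of 10 CPM or more, or with an unadjusted p under 0.05, are given by library; others are given by ranges, with some named for their role. Positions are from GRCm38.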

Additional observations from a re-analysis of the deposited data

How the results depend on the processing

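Comparing Rb1 cKO with control, 0 members were called under every alternative run, and the 19 genes given by library kept their direction in 262 of 266 values, with a lowest adjusted p of 0.533. The exceptions were Syce2 without control 2 (-0.0568) and without cKO 3 (-0.00506), Dmc1 without cKO 3 (-0.0306) and Ythdc2 without cKO 3 (-0.00482); over the 6 left-out libraries the highest values were 0.137 for Syce2, 0.272 for Dmc1 and 0.183 for Ythdc2. The cause was not tested. Leaving out 1 library at a time, members called ranged from 0 to 0, members higher from 25 to 31, the median log2 difference from 0.18 to 0.28, and members whose groups did not overlap from 6 to 18: 13 without control 1, 18 without cKO 1 and 10 without cKO 2, beside 24.3%, 15.98% and 17.4% of all genes, and 6 without cKO 3, beside 20.1% (8.93% with all libraries, either direction counted). Transcribed members ranged from 27 to 29 without 1 control, and were 32 at 0.5 CPM and 25 at 2 CPM. Members called in the Stra8 comparison ranged from 1, without cKO 3, to 9. The median share of control cells with a UMI over the 19 genes was 15.8% thinned and 36.1% without thinning. With the replicate number as a block, 0 members were called, 29 of 31 were higher and the median was 0.23; same-numbered libraries correlated at -0.13, 0.23 and 0.20 in their deviations from the group means, so the numbers were not taken to pair them, and control 1 correlated best with cKO 2. Over all genes, DESeq2 called 4, the fit with no low-count filter 6 and the fit without control 3 called 4, none of them members. Of the 8 members that failed the rule, Prdm9, Msh4, Ankrd31, Terb1 and Gm4969 had more than 3 UMIs in every control. A level under 1 CPM in at least 1 control, and not the count, kept them out.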
